A study of Mus musculus with 8 samples.

Results

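The family of miR-15, miR-16, miR-195 and miR-497 is a group of small regulatory RNAs that share the seed by which they recognise their target mRNAs. Its members were taken by name, as every murine miR of the array called miR-15a, miR-15b, miR-16, miR-195 or miR-497 with the 5p arm or no arm suffix. This gave 5 of the 1079 murine miRs, namely mmu-miR-15a-5p, mmu-miR-15b-5p, mmu-miR-16-5p, mmu-miR-195-5p and mmu-miR-497-5p. The samples were 8 specimens of callus from CD-1 mice, male and female, aged 9 to 14 weeks, harvested 7 days after osteotomy of the right femur with a pin and a clip holding the gap. The Nonunion group (P13 to P16) had a gap of 1.8 mm and was stripped of periosteum for 2 mm on either side of it, while the Union group (P17 to P20) had a gap of 0.25 mm with no stripping described. Gap width and stripping therefore cannot be told apart, and the group names rest on how these gaps are known to heal, since day 7 comes before any outcome. In RNA of a whole tissue, fewer cells of a type and less RNA per cell cannot be told apart either.

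MiRs guide the silencing complex to mRNAs that pair with their seed, bases 2 to 8. The miR-15/16 family is known for restraining the cell cycle through G1 cyclins and their kinases and for targeting the survival factor Bcl2. MiR-15a and miR-16 are the classic pair lost in chronic lymphocytic leukaemia. MiR-195 has been described as a brake on heart muscle cell division after birth, and the cluster of miR-497 and miR-195 as a regulator of bone vessels that couple angiogenesis to osteogenesis. A callus at this stage holds dividing cells of several types, among them invading leukocytes, vessels, mesenchymal progenitors and early cartilage.

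The 5 members are shown because they share a seed and differ behind it, which is what the array has to tell apart. The seed, bases 2 to 8, is in capitals, and the sequences and positions are those of RefSeq on GRCm38.p6. All 5 members were matched, miR-195-5p and miR-497-5p through the older names of Mir195a and Mir497.
mmu-miR-15a-5p: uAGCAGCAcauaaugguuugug
mmu-miR-15b-5p: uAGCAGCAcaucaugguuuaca
mmu-miR-16-5p: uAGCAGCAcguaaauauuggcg
mmu-miR-195-5p: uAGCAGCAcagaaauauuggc
mmu-miR-497-5p: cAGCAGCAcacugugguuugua
All 5 were identical from base 2 to base 9. Aligned from the 5′ end without gaps, miR-16-5p and miR-195-5p had the same base at 19 of 21 positions, miR-15a-5p and miR-15b-5p at 18 of 22, and miR-195-5p and miR-497-5p at 12 of 21. RefSeq also lists a miR-195b, which equals this miR-195-5p at 18 of 21 positions, and the name on the array does not say whether its probes separate them.

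The family comes from 3 loci. Mir15a (mature arm at chr14:61632075-61632096, minus strand) and Mir16-1 (chr14:61631936-61631957, minus strand) lie within the long non-coding gene Dleu2. Mir15b (chr3:69009775-69009796, plus strand) and Mir16-2 (chr3:69009918-69009939, plus strand) lie within Smc4, which encodes a subunit of the condensin complex. Both Mir16 genes give the same mature miR, so that the signal of miR-16-5p is the sum of both loci. Mir497 (chr11:70234730-70234751, plus strand) and Mir195a (chr11:70235062-70235082, plus strand) are separated by 310 bases between their 5p arms, and Mir497 overlaps Mir497b. The hairpins of the latter locus are printed because its members had the larger differences between the groups, with the measured 5p arm in capitals.
Mir497 hairpin, chr11:70234717-70234800: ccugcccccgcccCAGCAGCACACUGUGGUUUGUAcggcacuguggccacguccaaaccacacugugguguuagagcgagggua
Mir195a hairpin, chr11:70235042-70235135: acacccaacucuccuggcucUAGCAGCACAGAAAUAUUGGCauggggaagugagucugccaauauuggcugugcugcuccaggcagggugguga

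Each specimen was hybridized to 1 array. The scanner software gave a background-corrected signal merged over 40 spots for each member, 20 from each of its 2 probes, together with its own error. Summed over the 1079 miRs, the merged signal was 183589 to 279341 units on the Nonunion arrays and 227941 to 360063 on the Union arrays, and each group filled a row of the slide of its own, so that row and group cannot be told apart. Per array, 324 to 366 murine miRs were detected in the Nonunion group and 361 to 391 in the Union group. Of these, 310 were detected on all 8 arrays. The mean net signal of the negative controls was 51.2 to 55.0 on the Nonunion arrays and 46.9 to 47.9 on the Union arrays. The latter ranges did not overlap, and their part in the differences between the groups was not tested. The family was detected on all arrays, in 40 of 40 values. None of its 1600 spots was saturated, and 77 were flagged as outliers by the software. The software's error of a merged signal was between 7.08% and 8.09% of the signal. For the comparison, log2 values of the merged signal were brought to a common distribution by quantile normalization, and differences are Nonunion minus Union on this scale.

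The mean log2 signal of miR-497-5p on the Nonunion arrays exceeded that on the Union arrays by 0.60, an FC of 1.51, and that of miR-195-5p from the same locus by 0.53, an FC of 1.44, which did not pass the test. MiR-15a-5p, miR-15b-5p and miR-16-5p differed by -0.14, -0.11 and -0.04. Of the 5 members, only miR-497-5p was higher in the Nonunion group at an unadjusted limma p under 0.05, where 30 of the 310 tested miRs did (9.68%). No member was lower by this criterion, against 4.19% of the tested miRs. After Benjamini-Hochberg adjustment over all tested miRs no member passed, against 0.323% of them. The median difference was -0.04 over the 5 members and 0.15 over all tested miRs. With only the detected miRs quantile normalized, these medians were -0.04 and 0.03. In that setting 21 of the 310 miRs were higher and 17 lower at an unadjusted limma p under 0.05.

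The merged signal of miR-497-5p was 754, 637, 648 and 615 units on P13 to P16 of the Nonunion group. On P17 to P20 of the Union group it was 428, 421, 592 and 482 units. All Nonunion arrays thus lay above all Union arrays, with P19 nearest to them. After normalization the signal was 9.41 ± 0.14 (SD, n = 4) on the Nonunion arrays against 8.81 ± 0.41 (SD, n = 4) on the Union arrays. P19, at 9.30, then lay above P14, at 9.21, so that the groups overlapped. The difference of 0.60 had an SE of 0.24, a 95% interval from 0.06 to 1.13 and an unadjusted limma p of 0.0323, which was the 32nd smallest of all tested miRs (limma adjusted p = 0.313). The two-sided exact permutation test gave p = 0.0571, where 0.0286 is the smallest p that 4 arrays against 4 allow.

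MiR-195-5p, from the same locus, had a merged signal of 722, 634, 654 and 623 units on P13 to P16. On P17 to P20 it was 436, 422, 596 and 480.0 units. Again P17 and P18 were the lowest arrays and P19 was the Union array nearest to the Nonunion group. The normalized signal was 9.40 ± 0.17 (SD, n = 4) against 8.87 ± 0.45 (SD, n = 4), with P19 at 9.45 among the Nonunion arrays. The difference of 0.53 had an SE of 0.25 and a 95% interval from -0.03 to 1.09 (limma p = 0.0611 unadjusted and 0.378 adjusted, two-sided exact permutation p = 0.114).

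**Figure D1:**
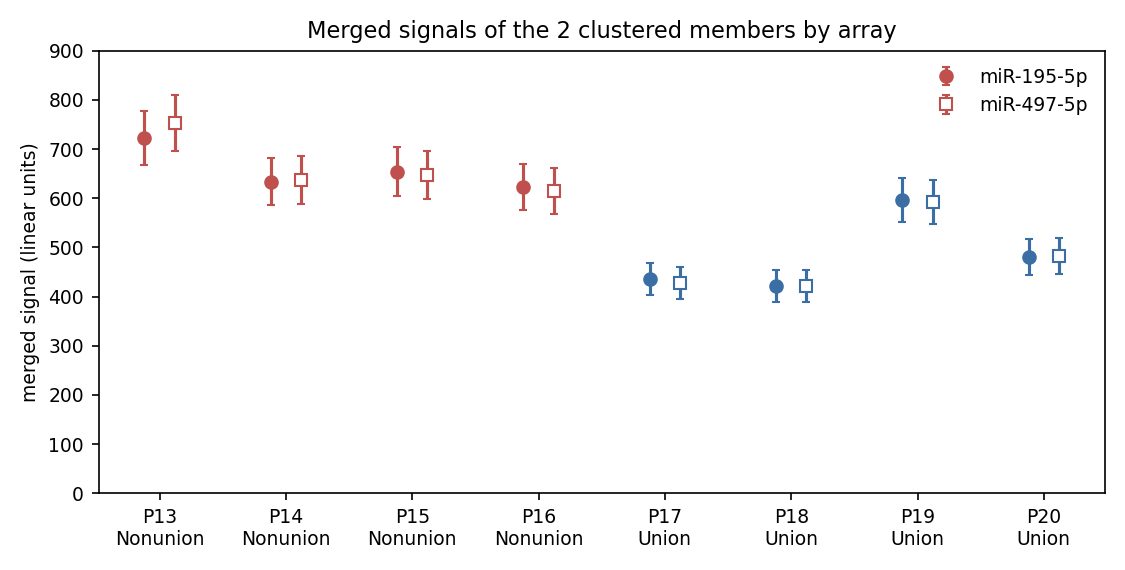
Merged signal in linear units of miR-195-5p (filled circles) and miR-497-5p (open squares) on each array, Nonunion in red and Union in blue, with the error given by the scanner software as bars. On every array both miRs lie within each other's error, and the Union arrays P17 and P18 are the lowest while P19 comes closest to the Nonunion arrays.

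Without normalization between arrays the groups did not overlap. The difference was then 0.46 for miR-195-5p (SE 0.18) and 0.47 for miR-497-5p (SE 0.19), with unadjusted limma p of 0.0338 and 0.0314 and the smallest possible exact permutation p, 0.0286, for both. Adjusted over all tested miRs, the limma p was 0.362 for both. Both were thus called at an unadjusted p under 0.05. Among all tested miRs, 6.13% were higher in the Nonunion group by the unadjusted p in this setting. All 4 Nonunion values lay above all Union values for 1.61% of them, 5 miRs in all, of which these were 2. Each of the 2 miRs is measured by 2 probes of 20 spots. The unnormalized difference was 0.50 and 0.44 for the probes of miR-195-5p and 0.55 and 0.44 for those of miR-497-5p. In each of the 4 probes all Nonunion arrays lay above all Union arrays. The merged signals are made from these probes, so that the probes are not a separate measurement.

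The merged signals of miR-195-5p and miR-497-5p followed each other closely. Their log2 signals differed by at most 0.06 on any array, which is 4.34% and less than the software's error. The range of this difference over the 8 arrays was 0.09, and of the 47895 pairs that the 310 tested miRs form, this was the pair with the smallest range. The match also held probe by probe. The log2 signals of the brighter probe of each miR differed by between -0.03 and 0.05 and those of the dimmer probe by between -0.09 and 0.08. Both miRs come from the same locus. Whether their probes also bind the other mature RNA was not tested, so that the pair is not counted here as 2 independent measurements.

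MiR-16-5p, the sum of 2 loci, had a merged signal of 1776, 1666, 1560.5 and 1574 units on P13 to P16 and of 2053, 1506, 1646 and 2298 units on P17 to P20. The normalized signal was 10.76 ± 0.05 (SD, n = 4) on the Nonunion arrays against 10.79 ± 0.23 (SD, n = 4) on the Union arrays. The difference of -0.04 (SE 0.18, limma adjusted p = 0.899) lay within the spread between arrays, with a 95% interval from -0.45 to 0.37 and a two-sided exact permutation p of 0.83. P18 was the lowest array and P20 the highest, both of the Union group.

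MiR-15a-5p, encoded beside Mir16-1, had a merged signal of 1436, 1316, 1167 and 1079 units on P13 to P16 and of 1459, 1215, 1175 and 2216 units on P17 to P20. P20 stood above the other 7 arrays, which overlapped. The normalized signal was 10.30 ± 0.13 (SD, n = 4) against 10.44 ± 0.39 (SD, n = 4). The difference of -0.14 (SE 0.23, limma adjusted p = 0.700) had a 95% interval from -0.65 to 0.38 and a two-sided exact permutation p of 0.714.

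MiR-15b-5p, encoded beside Mir16-2, had a merged signal of 1251, 1209, 1192 and 1253 units on P13 to P16. On P17 to P20 it was 1463, 1117, 1281 and 1864 units. The unnormalized Nonunion values were close together (SD 0.04 on the log2 scale), while the Union values surrounded them (SD 0.31). After normalization the spreads were less unlike, at 10.28 ± 0.17 (SD, n = 4) on the Nonunion arrays against 10.39 ± 0.29 (SD, n = 4) on the Union arrays. The normalized difference of -0.11 (SE 0.21, limma adjusted p = 0.726) had a 95% interval from -0.58 to 0.36 and a two-sided exact permutation p of 0.571. For miR-15a-5p, miR-15b-5p and miR-16-5p together the intervals reached from -0.65 to 0.38.

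**Figure D2:**
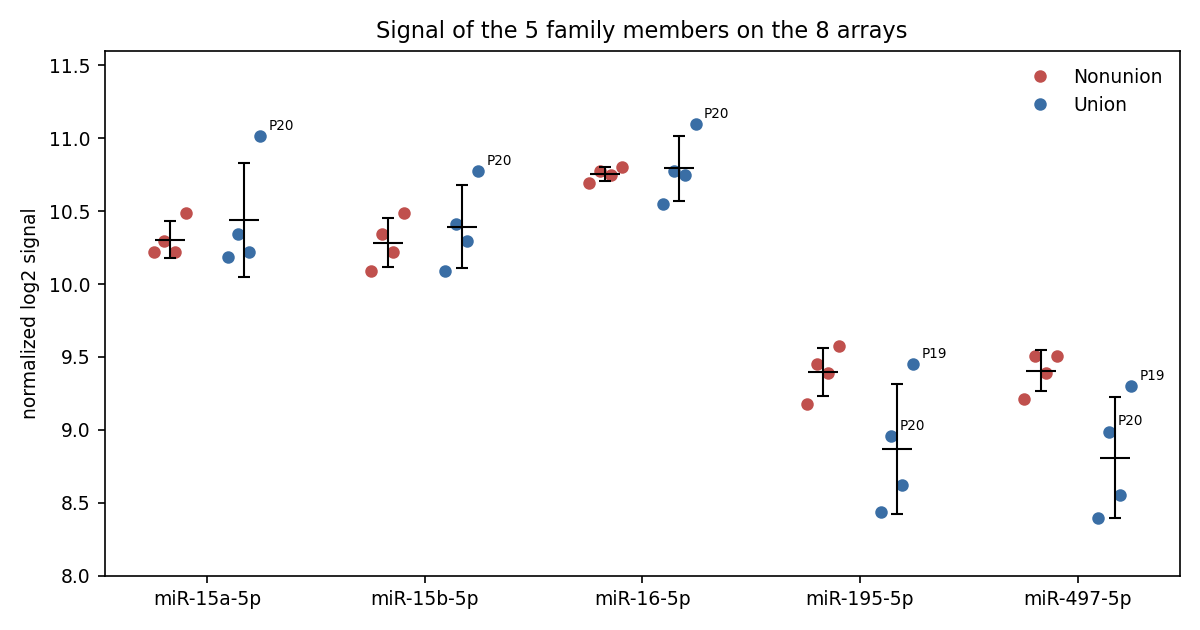
Normalized log2 signal of the 5 members on the 4 Nonunion (red) and 4 Union (blue) arrays, with the mean as a black line and the SD as bars. P20 is the highest array for miR-15a-5p, miR-15b-5p and miR-16-5p, and P19 lies level with the Nonunion arrays for miR-195-5p and miR-497-5p.

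The sign of these 3 differences turned without P20, where miR-15a-5p, miR-15b-5p and miR-16-5p differed by 0.05, 0.02 and 0.07, and for all 3 it also turned when arrays were scaled by the 75th percentile over all murine miRs. P20 was also the array with the highest mean signal of the markers of myeloid cells and leukocytes, 12.00 against 10.01 to 10.16 on the other Union arrays and 9.53 to 10.12 on the Nonunion arrays. Of the 4 markers 3 were detected on every array, and miR-223-5p was not. Among those 3, miR-223-3p alone was lower in the Nonunion group at an unadjusted limma p under 0.05, as were 4.19% of all tested miRs. Its adjusted limma p was 0.346. For miR-195-5p and miR-497-5p, P20 lay between P18 and P19. The part of this cell type in the values of P20 was not tested.

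**Figure D3:**
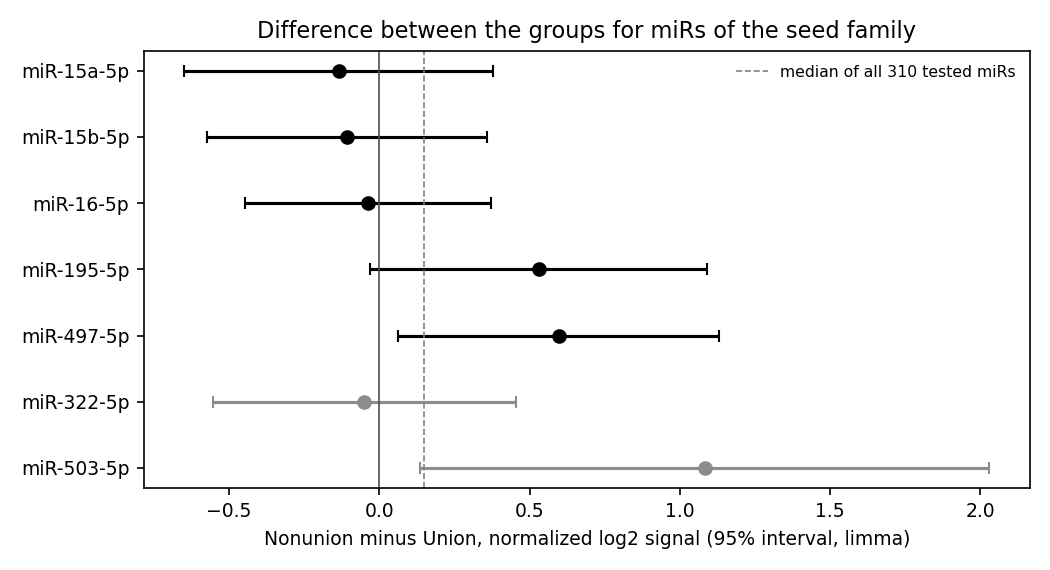
Difference Nonunion minus Union in normalized log2 signal with its 95% interval from limma, for the 5 members (black) and for 2 further miRs with a like seed (grey), with the median of all tested miRs as a dashed line. The intervals of miR-497-5p and miR-503-5p lie above 0 and that of miR-195-5p reaches just below it, while those of miR-15a-5p, miR-15b-5p, miR-16-5p and miR-322-5p lie on both sides.

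A difference between members within the same array does not depend on the scaling between arrays. For miR-195-5p minus miR-16-5p, the log2 signals differed by between -1.39 and -1.26 on the Nonunion arrays (median -1.32) and by between -2.26 and -1.46 on the Union arrays (median -2.04). The groups did not overlap, and the shift between their means was 0.63. For miR-497-5p minus miR-16-5p the ranges were -1.39 to -1.24 and -2.26 to -1.48, with a shift of 0.65. Of the 309 tested miRs besides miR-16-5p, 7 (2.27%), these 2 included, lay higher against it on all Nonunion arrays than on any Union array. Measured from miR-15b-5p the shifts were 0.65 and 0.67, again without overlap, as for 14 of 309 miRs (4.53%), these 2 included. Measured from miR-15a-5p they were 0.70 and 0.71 with overlapping groups, where 1 of 309 miRs (0.324%) had none. These levels cannot be ranked against each other, since every miR has its own probes, and the shifts are a description.

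Among miR-15a-5p, miR-15b-5p and miR-16-5p the differences within an array overlapped between the groups in all 3 pairs, with shifts between 0.03 and 0.07. MiR-16-5p minus miR-15b-5p varied least, between 0.30 and 0.51 over the 8 arrays. MiR-16-5p minus miR-15a-5p ranged from 0.05 on P20 to 0.54. P20 was thus raised more in miR-15a-5p than in miR-16-5p.

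**Figure D4:**
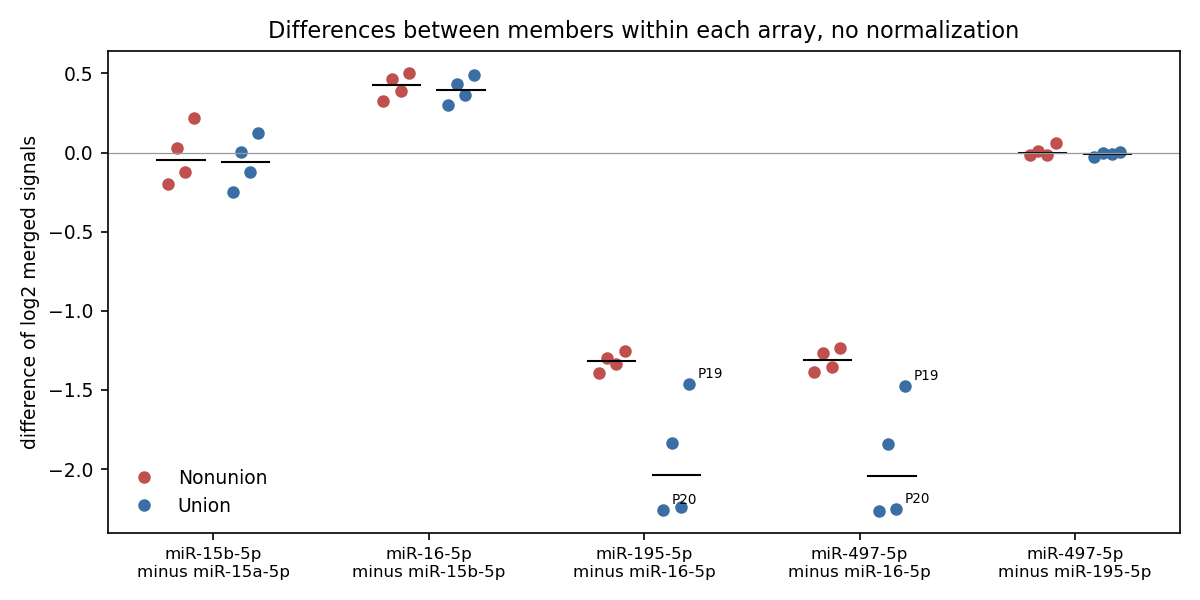
Difference between the log2 merged signals of 2 members within each array, not normalized between arrays, for 5 pairs of members, with Nonunion arrays in red, Union arrays in blue and the group median as a line. The groups overlap among miR-15a-5p, miR-15b-5p and miR-16-5p and lie apart for miR-195-5p or miR-497-5p minus miR-16-5p, and miR-497-5p minus miR-195-5p stays near 0 on all arrays.

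The opposite arms of the precursors were detected on few arrays or none. Of the 6 partner arms, 5 were detected on no array, miR-15a-3p, miR-16-1-3p, miR-16-2-3p, miR-195-3p and miR-497-3p. MiR-15b-3p was detected on P13 of the Nonunion group and on P17, P19 and P20 of the Union group, with merged signals between 2.19 and 2.64 units. The arrays therefore measured the family through its 5p arms.

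By RefSeq, 10 mature murine miRs share bases 2 to 8 with miR-16-5p, and an eleventh, miR-503-5p, shares bases 2 to 7. The array carried 7 of these 11 under a matched name, the 5 members, miR-322-5p and miR-503-5p. The latter 2 come from a cluster on chromosome X. They are printed with the seed in capitals, since the last seed base separates them.
mmu-miR-322-5p: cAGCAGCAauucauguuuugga
mmu-miR-503-5p: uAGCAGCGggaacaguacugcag
MiR-322-5p, with the full family seed, had a difference of -0.05 (SE 0.22, limma adjusted p = 0.892) and its highest signal on P20. MiR-503-5p had a merged signal of 74.5, 74.5, 124 and 151 units on P13 to P16 and of 61.5, 36.5, 75.7 and 61.5 units on P17 to P20. P15 and P16 were the highest arrays and P18 was the lowest, and P19 lay just above P13 and P14. Its difference was 1.08 (SE 0.42, limma p = 0.0292 unadjusted and 0.313 adjusted, two-sided exact permutation p = 0.143).

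Cartilage markers shared part of their order of arrays with miR-497-5p and miR-195-5p. The mean normalized signal of miR-140-3p, miR-140-5p, miR-455-3p and miR-455-5p, all detected on every array, was 7.14, 6.47, 7.74 and 8.69 on P13 to P16 and 5.67, 5.67, 6.93 and 6.20 on P17 to P20. All 4 were higher in the Nonunion group at an unadjusted limma p under 0.05, as were 9.68% of all tested miRs. They are both arms of miR-140 and both arms of miR-455, so that they are not 4 independent measurements. None of the 4 passed after adjustment (limma adjusted p from 0.288 to 0.313). P17, P18 and P20 were the lowest arrays both for these markers and for miR-195-5p and miR-497-5p, and P19 lay above P14 in both. How many other tested miRs share this order was not counted. None of these markers was among the 3 miRs nearest to miR-195-5p or to miR-497-5p by correlation. The part of cartilage in the difference of the cluster was not tested. The mean of 3 red blood cell markers, miR-451, miR-144-3p and miR-144-5p, ranged from 7.04 to 8.61 in the Nonunion group and from 7.21 to 9.19 in the Union group. That of the 4 skeletal muscle markers detected on every array ranged from 12.33 to 13.61 and from 13.10 to 13.54. MiR-208b-3p and miR-499-5p of the muscle list were not detected on all arrays.

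Each member was also set against the other tested miRs by the Pearson correlation of the normalized signal over the 8 arrays, which share their slide and normalization, and the 3 nearest are named. For miR-15a-5p these were miR-146a-5p (r = 0.961), miR-192-5p (0.953) and miR-146b-5p (0.950). For miR-15b-5p they were miR-322-5p (0.975), miR-130b-3p (0.939) and miR-92a-3p (0.933). For miR-16-5p they were miR-106b-5p (0.982), miR-361-5p (0.972) and miR-185-5p (0.957). MiR-195-5p and miR-497-5p were each other's nearest (0.981), followed in both by miR-674-3p (0.979 and 0.981), and then by let-7e-5p (0.978) for miR-195-5p and by miR-674-5p (0.966) for miR-497-5p.

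Other miRs known to act on the cell cycle were taken from 2 lists. Of 7 miRs known to restrain G1 cyclins and their kinases, 6 were tested, and miR-503-5p alone had an unadjusted limma p under 0.05, higher in the Nonunion group, as did 9.68% of all tested miRs. The other 5 differed by between -0.05 and 0.49. MiR-449a-5p was not detected on all arrays. The median of this list, which also holds miR-322-5p, was 0.24. Of 7 miRs known to promote entry into the cycle, none passed in either direction, and the median difference was 0.05. The smallest p among them was that of miR-17-5p, with a difference of 0.82 (SE 0.44, limma adjusted p = 0.378), which was 0.08 without normalization. Its unnormalized log2 signal was low, between 2.34 and 3.19 on the Nonunion arrays and between 2.36 and 3.22 on the Union arrays. All 7 differences were above 0 after normalization, as were 184 of all 310, and 1 of the 7 without it, as were 125 of 310. Both medians stand beside 0.15 over all tested miRs. With only the detected miRs quantile normalized, the medians of the lists were 0.24 and 0.04, beside 0.03 over all tested miRs.

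The call of miR-497-5p depended on single arrays, and that of miR-195-5p on single arrays and on the processing. When P13, P15, P16, P17 or P18 was left out, the unadjusted limma p of miR-497-5p rose to between 0.0679 and 0.0836. Without P19, the difference was 0.74 for miR-195-5p (limma adjusted p = 0.0711) and 0.78 for miR-497-5p (limma adjusted p = 0.0697), and both had an unadjusted p under 0.05. P19 was the Union array nearest to the Nonunion group for both, so that leaving it out had to widen their differences, and 85 of 310 miRs were then higher by the unadjusted p, against 30 with all arrays. The direction was the same in all 20 alternatives for both, but not all of these could change it. The intensity trend and the changed detection filters used the normalized values as reported. Setting signals under 1 to 1 and quantile normalization over the detected miRs only left both differences as they were.

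**Figure D5:**
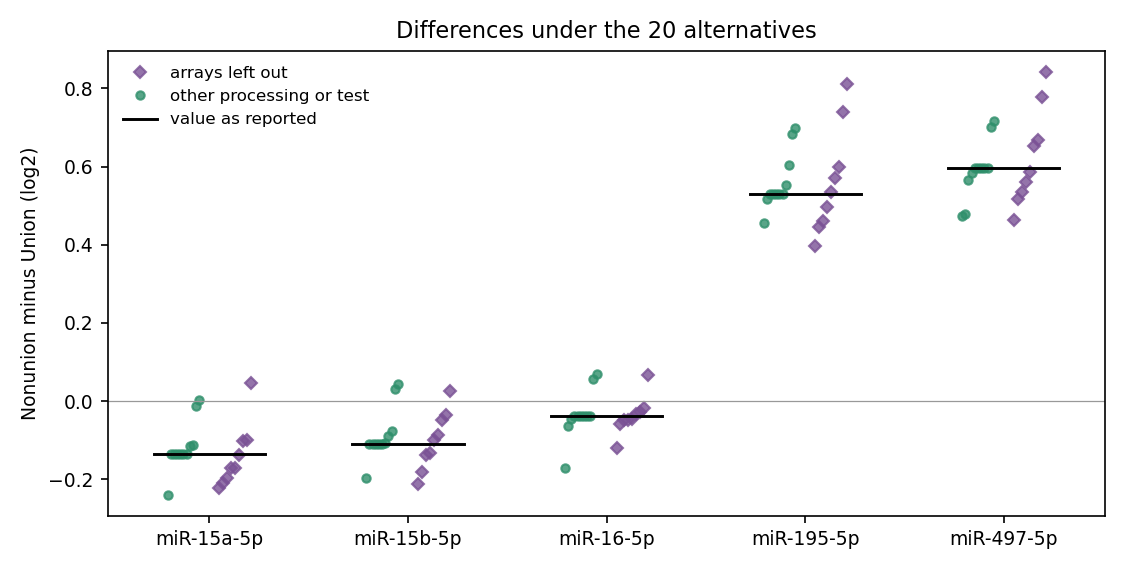
Difference Nonunion minus Union on the log2 scale for each member under the 20 alternatives, with other processing or tests as green circles, settings that leave out arrays as purple diamonds, and the value as reported as a black line. All values of miR-195-5p and miR-497-5p lie between 0.40 and 0.84, while those of the other members lie between -0.24 and 0.07 and cross 0.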

How the data were processed

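Total RNA from callus was run in a single colour (Cy3) on the 8 arrays of a single slide, 4 per group, each group filling 1 row, so that row and group cannot be told apart. Per the file headers, the authors extracted signal intensity values with Agilent Feature Extraction 10.10.1.1. The deposited output holds background-corrected intensities per spot, probe and miR on a linear scale, with 0.1 for a miR that was not detected. The authors also deposited a table of normalized log2 values, which served as an alternative.

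Quantile normalization was applied to the log2 merged signal of 1079 murine miRs, and the 310 detected on all arrays were fitted with limma 3.58.1 in R 4.3.3 (lmFit and eBayes, two-sided, Benjamini-Hochberg adjustment over all 310). FC is 2 to the power of the difference. Single values were permuted over all 70 arrangements of the arrays. Python 3.11.15 read the files. The fit was tested on simulated data of 310 miRs, with values shuffled over the arrays and known changes added. A log2 change of 0.5 was found at an unadjusted limma p under 0.05 in 39.5% of cases and after adjustment in 1%. For a change of 1 these were 73.5% and 27.5%. A member that did not pass may therefore still differ, with its own 95% interval giving the range. The intervals of miR-195-5p (-0.03 to 1.09) and miR-497-5p (0.06 to 1.13) hold increases of 0.5 and of 1. Those of miR-15a-5p (-0.65 to 0.38) and miR-15b-5p (-0.58 to 0.36) hold a decrease of 0.5. They hold no increase of 0.5 and no change of 1. That of miR-16-5p (-0.45 to 0.37) holds no change of 0.5 or 1 in either direction.

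The miRs named were the members, miRs sharing bases 2 to 7 with miR-16-5p, the partner arms, the 3 nearest by correlation, 2 cell cycle lists, and markers of red blood cells, muscle, myeloid cells and leukocytes, and cartilage. From the cell cycle lists, those with an unadjusted p under 0.05 or else the smallest p are named. The red blood cell list also held miR-486-5p, which is not analysed here. Members and lists were chosen with earlier results of these data known. The alternatives were other normalizations, background corrections, filters, floors, the value table of the authors, an intensity trend, and arrays left out. Precision is limited by the number of arrays. The labels name each specimen separately, and the groups share no numbers that would pair them.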

Additional observations from a re-analysis of the deposited data

How the results depend on the processing

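For miR-195-5p, the unadjusted limma p fell under 0.05 with the 75th percentile over the detected miRs (difference 0.68) or over all murine miRs (0.70), without normalization (0.46), with normexp background correction (0.55), with averaged spot signals (0.60), in the value table of the authors (0.52), with an intensity trend (0.53), without P19 (0.74) and without P14 and P19 (0.81). Of the 310 tested miRs, 19 to 33 were higher by this p in the first 7 of these settings, 85 without P19 and 83 without P14 and P19. The unadjusted limma p of miR-195-5p was thus under 0.05 in 9 of the 20 alternatives. In the others it did not pass, with p up to 0.146 without P17. With 1 array left out, the difference ranged from 0.40 to 0.74 for miR-195-5p and from 0.46 to 0.78 for miR-497-5p. It ranged from -0.22 to 0.0454 for miR-15a-5p, from -0.21 to 0.0248 for miR-15b-5p and from -0.12 to 0.0656 for miR-16-5p. The sign also turned with the 75th percentile over all murine miRs for miR-15a-5p (0.00245), miR-15b-5p (0.0445) and miR-16-5p (0.0699), and with that over the detected miRs for miR-15b-5p (0.0304) and miR-16-5p (0.0557). No member passed after adjustment in any of the 20 alternatives, where the smallest limma adjusted p was 0.0671, without P14 and P19. After normalization P14 was the lowest Nonunion array and P19 the highest Union array for both miR-195-5p and miR-497-5p. Leaving out this pair therefore had to widen their differences, so that this setting adds no support.

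Over all tested miRs, 43 had an unadjusted limma p under 0.05, against 18 to 115 with 1 array left out, the fewest without P17 and the most without P19, and 122 without P14 and P19. After adjustment 1 passed. The adjusted count was 0 to 12 with 1 array left out and 21 without P14 and P19. It was 0 without normalization (35 unadjusted), 0 with the 75th percentile over all murine miRs (42) and 0 with normexp (40). It was 2 when only the detected miRs were quantile normalized, 2 when all murine miRs were tested and 3 with detection required in 1 group. The cause was not tested. The median difference over all tested miRs was -0.10 without normalization, with 19 miRs higher and 16 lower, against 30 and 13 as reported.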
